A study of Homo sapiens with 6 samples.

Results

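The genes described here encode 10 of the proteins that write, erase and read N6-methyladenosine (m6A) on RNA, none of them an IGF2BP reader. They were METTL3, METTL14, WTAP and VIRMA of the writer complex, the erasers ALKBH5 and FTO, and the YTH-domain readers YTHDF1, YTHDF2, YTHDF3 and YTHDC1. The 10 genes were chosen by name, each symbol stood in 1 row of a table of 62710 genes, and all 10 were among the 16753 genes that passed the filter on low counts. Their RNA was measured in HCT116 cells, a human colon cancer line, with or without a short hairpin RNA (shRNA) directed against IGF2BP3. There were 3 libraries from cells with a scrambled control shRNA (sh-NC) and 3 from cells with an shRNA against IGF2BP3 (sh-IGF2BP3). Both kinds of cell were infected with lentivirus and kept as stable lines after puromycin selection, and the libraries cover 1 shRNA against IGF2BP3. The sources used here do not say whether the libraries of a group came from separate cultures, so the p-values measure the spread between these libraries, which may be technical.

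m6A is the most common internal modification of mRNA. METTL3 is the methyltransferase that places it, METTL14 binds METTL3 and helps hold the RNA, and WTAP and VIRMA anchor the pair in a larger nuclear complex. ALKBH5 and FTO are oxygenases that can remove the methyl group. The YTHDF proteins bind m6A in the cytoplasm, where they act mainly on decay and translation of mRNA, and YTHDC1 binds it in the nucleus. IGF2BP3 is also described as an m6A reader, one that stabilizes the mRNAs it binds. The comparison therefore asked whether the RNA levels of the other m6A factors differed when this reader was reduced.

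The libraries held 16146718 to 23576469 counts. Mitochondrial genes took 6.12% to 7.76% of the counts in sh-NC and 5.24% to 5.89% in sh-IGF2BP3 libraries, so the groups did not overlap in this measure, and its part in the results was not tested. Of 8 epithelial marker genes 7 were above 1 FPKM (fragments per kilobase of gene, scaled to the depth of the library) in every library, with a summed level of 564 to 882 FPKM in sh-NC and 739 to 975 FPKM in sh-IGF2BP3. The exception was VIL1, at or near 0. The summed level was 3.02 to 6.53 FPKM for 5 fibroblast markers, nearly all of it COL1A1 with COL1A2 and LUM at 0, at most 0.687 FPKM for 5 leukocyte markers and at most 0.478 FPKM for 3 endothelial markers. In bulk RNA, fewer cells of a kind and less RNA per cell cannot be told apart.

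The sequence of the hairpin is shown because its target sets the contrast, with the stretches it shares with writer, eraser and reader transcripts given beside it. The whole 19 bases occur in transcripts of IGF2BP3 and in 1 processed pseudogene of the GENCODE 29 annotation. The capitals mark the longest run of bases shared with any transcript of the named gene, and IGF2BP3, which shares all of it, is written without capitals.
IGF2BP3: ggctcagggaagaatttat
FTO: ggctcaGGGAAGAATTTat
METTL3: ggctcagggAAGAATTTAT
ALKBH5: gGCTCAGGgaagaatttat
FTO shared 11 of the 19 bases, METTL3 shared 10, and the other 8 genes shared 7 to 9. IGF2BP3 itself stood at 90.3, 84.1 and 70.3 CPM (counts scaled to a common library size after edgeR's TMM normalization) in sh-NC 1, 2 and 3, and at 60.2, 52.3 and 55.8 CPM in sh-IGF2BP3 1, 2 and 3. All sh-IGF2BP3 values were lower than all sh-NC values, with a log2 fold change of −0.54 (standard error 0.181, edgeR adjusted p = 0.126). The sh-IGF2BP3 mean was 0.687 of the sh-NC mean, so the reduction at the RNA level was partial, and the values of the m6A genes below were obtained under it. With DESeq2 the adjusted p was 0.0829. With the trends of each library with GC content and gene length removed, the log2 fold change was −0.22 and the groups overlapped. The study also reported the knockdown in HCT116 by qPCR and Western blot, which these libraries do not measure. The gene shares 17.9% of its exon bases with MALSU1 on the opposite strand.

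None of the 10 m6A genes passed the test. At an adjusted p under 0.05 and a fold change above 1.5, the thresholds of the study's methods, 0 of 10 were called higher and 0 lower by edgeR's quasi-likelihood test with Benjamini-Hochberg adjustment, as were 0% of all genes tested in either direction. DESeq2 also called 0 of the 10, against 4.29% of its 13087 tested genes higher and 1.05% lower. At an unadjusted p under 0.05 in edgeR's test the count was 0 of 10 in both directions, where 13.6% of all genes were higher and 8.54% lower. For all 10 genes the values of both groups overlapped, whereas the groups did not overlap in 13.2% of all genes tested with higher and 11.0% with lower values in sh-IGF2BP3. The estimates stood above 0 for 6 genes and below 0 for 4, where 8208 of all genes tested stood above 0 and 8545 below. The median log2 fold change was 0.0091 for the 10 genes beside −0.014 over all genes. The largest estimate in either direction was 0.33.

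These genes were read deeply, with 585 to 4948 counts per library, so that counting error was at most 4.13% of a value and the spread between libraries set the precision. The median coefficient of variation over the 10 genes was 14.3% in sh-NC against 15.3% in sh-IGF2BP3, beside 18.9% and 19.3% over all genes tested. The 95% confidence interval of the log2 fold change lay within ±0.58, a fold change of 1.5, for METTL3, WTAP, FTO, YTHDF2, YTHDF3 and YTHDC1. It reached past that bound for METTL14, VIRMA, ALKBH5 and YTHDF1, and for all 10 genes it lay within ±1, a fold change of 2. With the trends of each library with GC content and length removed, the intervals of METTL14, VIRMA, ALKBH5 and YTHDF1 lay within the 1.5-fold bound and those of WTAP, YTHDF2, YTHDF3 and YTHDC1 reached past it. Of the 10 genes 2, METTL3 and FTO, stayed within it on both scales.

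**Figure D1:**
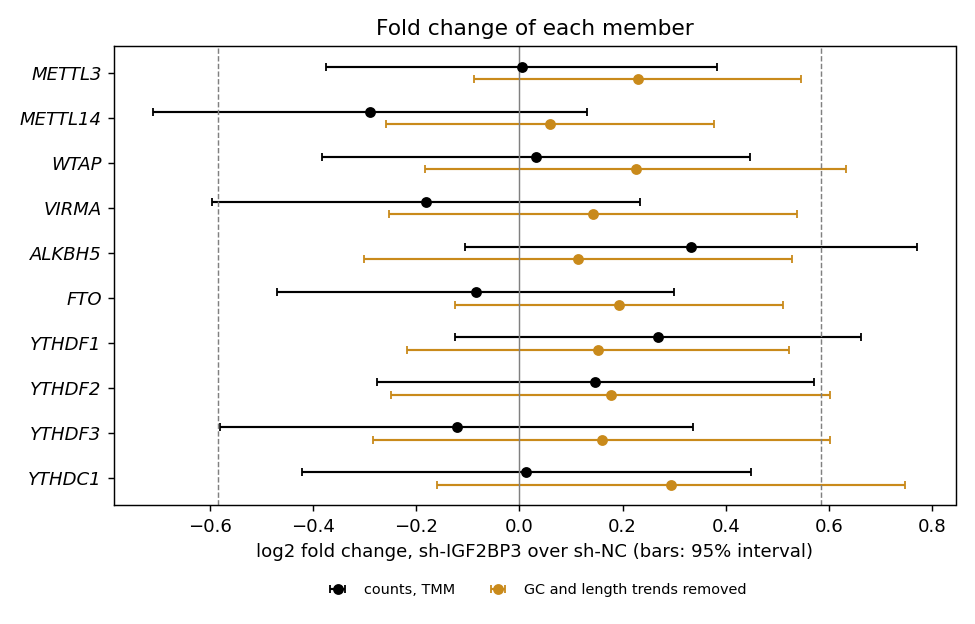
Log2 fold change (x axis, sh-IGF2BP3 over sh-NC) of each m6A gene (y axis) with its 95% confidence interval, from counts with TMM scaling in black and with GC content and length trends removed in orange. Every interval spans 0, dashed lines mark a fold change of 1.5, and the orange points lie above 0 for 10 of 10 genes. The genes share the same 6 libraries, so these points are not independent.

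Among the writers, METTL3 was the steadiest in control cells. METTL3 (ENSG00000165819; chromosome 14, 21498133 to 21511342, minus strand, GRCh38) was at 73.4, 67.7 and 72.8 CPM in sh-NC 1, 2 and 3, and at 63.0, 70.7 and 80.9 CPM in sh-IGF2BP3 1, 2 and 3. The sh-IGF2BP3 values lay on both sides of the sh-NC values, which differed by at most 1.08-fold. Its means were 71.3 ± 3.10 and 71.5 ± 8.96 CPM (SD, n = 3 per group), a log2 fold change of 0.0046 (standard error 0.179, edgeR adjusted p = 0.989). METTL3 shares 6.58% of its exon bases with TOX4, which lies on the opposite strand.

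METTL14, the RNA-binding partner of METTL3, had the lowest estimate of the 10 genes. METTL14 (ENSG00000145388; chromosome 4, 118685392 to 118715433, plus strand) was at 35.0, 51.3 and 47.9 CPM in sh-NC and 33.4, 38.8 and 37.5 CPM in sh-IGF2BP3 libraries. All 3 sh-IGF2BP3 values were close together and below sh-NC 2 and sh-NC 3, while sh-NC 1 fell among them. The log2 fold change was −0.29 (standard error 0.198, edgeR adjusted p = 0.397). Without sh-NC 1 it was −0.44 (edgeR adjusted p = 0.133), and with GC content and length trends removed it was 0.060.

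WTAP and VIRMA, the scaffold subunits, varied more among the sh-IGF2BP3 libraries than the other writers did, with coefficients of variation of 18.1% and 20.2%. WTAP (ENSG00000146457; chromosome 6, 159725585 to 159756319, plus strand) was at 114, 98.2 and 86.8 CPM in sh-NC and 81.6, 106 and 118 CPM in sh-IGF2BP3 libraries, a log2 fold change of 0.032 (standard error 0.196, edgeR adjusted p = 0.937). The gene lies wholly within the annotated span of SOD2 (159669069 to 159762529) on the opposite strand, and without a stated use of strand the reads of such pairs cannot be told apart where their exons overlap. VIRMA (ENSG00000164944; chromosome 8, 94487689 to 94553529, minus strand) was at 212, 204 and 182 CPM in sh-NC and 140, 177 and 211 CPM in sh-IGF2BP3 libraries. The sh-IGF2BP3 1 and 2 values of VIRMA were below every control library and sh-IGF2BP3 3 lay at the top of the control range, a log2 fold change of −0.18 (standard error 0.195, edgeR adjusted p = 0.604). The summed level of the 4 writers was 54.0 ± 1.06 FPKM in sh-NC and 48.3 ± 6.96 FPKM in sh-IGF2BP3 libraries (SD, n = 3 per group; two-sided exact permutation test, p = 0.4).

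ALKBH5, the eraser found mainly in the nucleus, had the highest estimate of the 10 genes. ALKBH5 (ENSG00000091542; chromosome 17, 18183078 to 18209954, plus strand) was at 140, 102 and 81.2 CPM in sh-NC 1, 2 and 3, and at 139, 139 and 129 CPM in sh-IGF2BP3 1, 2 and 3. The sh-IGF2BP3 values were within 1.08-fold of each other and the sh-NC values spread 1.73-fold, with sh-NC 1 just above the sh-IGF2BP3 libraries. The means were 108 ± 29.97 and 136 ± 5.86 CPM (SD, n = 3 per group), a log2 fold change of 0.33 (standard error 0.207, edgeR adjusted p = 0.354). It ran from 0.14 without sh-NC 3 to 0.57 without sh-NC 1, where the edgeR adjusted p of 0.0561 was the lowest of any of the 10 genes under any setting. With GC content and length trends removed it was 0.11.

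FTO, which also acts on m6Am near the mRNA cap, had the lowest FPKM of the 10 genes. FTO (ENSG00000140718; chromosome 16, 53701692 to 54158512, plus strand) was at 67.3, 76.5 and 70.0 CPM in sh-NC and 65.9, 58.7 and 76.9 CPM in sh-IGF2BP3 libraries. The groups overlapped, with sh-IGF2BP3 3 the highest and sh-IGF2BP3 2 the lowest of the 6 libraries. The log2 fold change was −0.085 (standard error 0.181, edgeR adjusted p = 0.809). The log2 ratio of FTO to ALKBH5 in FPKM was −3.14 ± 0.441 in sh-NC against −3.59 ± 0.253 in sh-IGF2BP3 libraries (SD, n = 3 per group; two-sided exact permutation test, p = 0.2, adjusted p = 0.333 over 5 tests). In linear terms FTO stood at 0.0807, 0.126 and 0.145 of the ALKBH5 level in sh-NC against 0.0797, 0.0710 and 0.1002 in sh-IGF2BP3 libraries, so the ratio of sh-NC 1 lay within the range of the sh-IGF2BP3 libraries.

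The cytoplasmic readers YTHDF1, YTHDF2 and YTHDF3 are close relatives that bind the same mark. YTHDF1 (ENSG00000149658; chromosome 20, 63195429 to 63216139, minus strand) was at 112, 90.2 and 85.9 CPM in sh-NC and 106, 113 and 128 CPM in sh-IGF2BP3 libraries. As for ALKBH5, sh-NC 1 alone reached the sh-IGF2BP3 values, for a log2 fold change of 0.27 (standard error 0.185, edgeR adjusted p = 0.401). YTHDF2 (ENSG00000198492; chromosome 1, 28736621 to 28769775, plus strand), the reader best known for recruiting the CCR4-NOT deadenylase, was at 185, 140 and 138 CPM in sh-NC and 139, 179 and 196 CPM in sh-IGF2BP3 libraries. Each group of YTHDF2 values was split, with sh-NC 1 high and sh-IGF2BP3 1 low, giving a log2 fold change of 0.15 (standard error 0.200, edgeR adjusted p = 0.689). YTHDF3 (ENSG00000185728; chromosome 8, 63168553 to 63212786, plus strand) was at 162, 132 and 127 CPM in sh-NC and 90.6, 136 and 160 CPM in sh-IGF2BP3 libraries. Its sh-IGF2BP3 values spread 1.77-fold, the widest spread of any of the 10 genes within a group, with a log2 fold change of −0.12 (standard error 0.216, edgeR adjusted p = 0.767).

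YTHDC1, the nuclear reader, was also split within both groups. YTHDC1 (ENSG00000083896; chromosome 4, 68310387 to 68350090, minus strand) was at 165, 137 and 113 CPM in sh-NC and 109, 159 and 150 CPM in sh-IGF2BP3 libraries. The lowest value belonged to sh-IGF2BP3 1 and the highest to sh-NC 1. The means were 138 ± 25.8 and 139 ± 26.4 CPM (SD, n = 3 per group), a log2 fold change of 0.014 (standard error 0.205, edgeR adjusted p = 0.975).

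Levels of different genes can be compared only per length, for which the deposited FPKM values were used. In sh-NC cells the order was YTHDF2 at 42.2 ± 4.82, YTHDF1 at 30.6 ± 2.62, ALKBH5 at 30.4 ± 6.44, YTHDF3 at 23.2 ± 1.76 and YTHDC1 at 19.997 ± 2.43 FPKM (SD, n = 3). It went on with VIRMA at 18.9 ± 0.508, WTAP at 15.9 ± 1.15, METTL3 at 12.5 ± 0.943, METTL14 at 6.76 ± 1.61 and FTO at 3.42 ± 0.355 FPKM (SD, n = 3). The ranges of YTHDF1 and ALKBH5, of ALKBH5 and YTHDF3, of YTHDF3 and YTHDC1, and of YTHDC1 and VIRMA overlapped, and the other neighbours in this order did not. Among all tested genes YTHDF2 ranked 722nd, within the top 4.31%, and FTO ranked 8556th, near the middle at 51.1%. In sh-IGF2BP3 cells YTHDF2 again came first, at 44.4 ± 6.79 FPKM, METTL14 was at 5.20 ± 0.260 FPKM and FTO came last, at 3.06 ± 0.440 FPKM (SD, n = 3), and ALKBH5 and YTHDF1 stood in the opposite order with overlapping ranges.

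The middle of this order depended on the length assigned to a gene. The FPKM values divide by about the length of all annotated exons joined, 5861 bp for METTL3 and 21379 bp for FTO, where the principal transcripts are 2015 and 11766 bp. Per kilobase of principal transcript, a scale chosen after seeing the data, YTHDF3 came first at 60.4 ± 4.57 and YTHDF2 second at 53.8 ± 6.14, with overlapping ranges, and METTL3 moved from the eighth to the fifth place at 36.3 ± 2.74 (SD, n = 3). METTL14, at 6.93 ± 1.65, and FTO, at 6.22 ± 0.646 (SD, n = 3), were the lowest on either scale. The sizes of the ratios and shares of FPKM given here depend on the assigned lengths too.

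**Figure D2:**
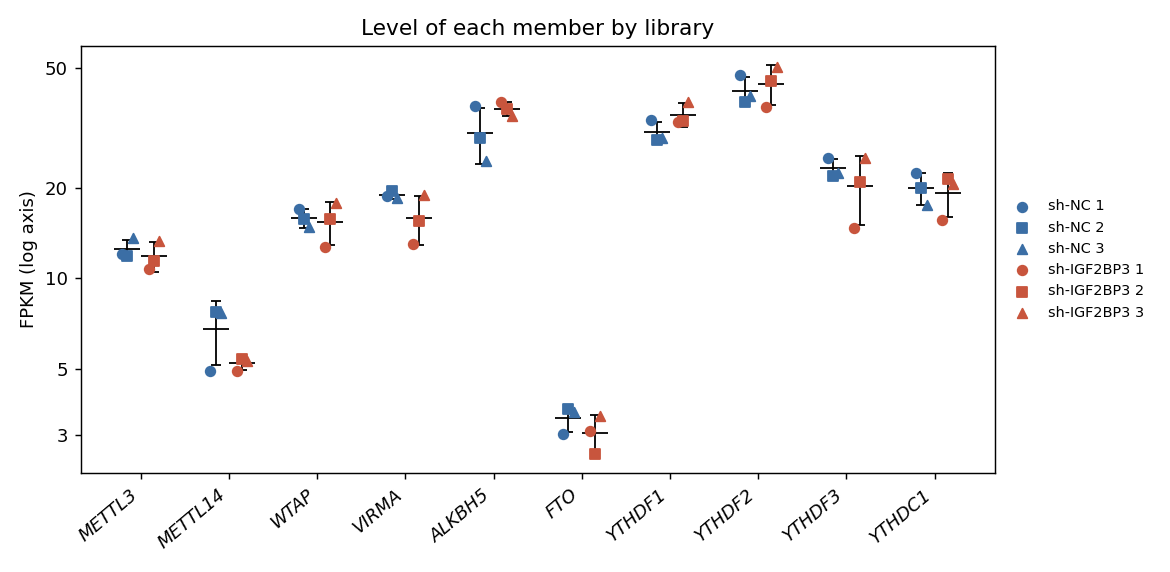
Level of each m6A gene (x axis) in FPKM on a log axis (y axis), with sh-NC libraries in blue and sh-IGF2BP3 libraries in red, symbols for replicates 1 to 3, and black bars for the mean and SD. The blue and red points of METTL14 and ALKBH5 are the farthest apart, and in both cases sh-NC 1 lies at the level of the sh-IGF2BP3 libraries.

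METTL3 and METTL14 proteins form a heterodimer, so the ratio of their RNAs was followed across libraries. METTL3 stood at 2.45, 1.54 and 1.77 times the FPKM of METTL14 in sh-NC 1, 2 and 3, and at 2.20, 2.12 and 2.51 times in sh-IGF2BP3 1, 2 and 3. The ratio of sh-NC 1 lay within the range of the sh-IGF2BP3 libraries, which was not so for its IGF2BP3 or RBM15B values. The log2 ratio was 0.91 ± 0.343 in sh-NC against 1.18 ± 0.129 in sh-IGF2BP3 (SD, n = 3 per group; two-sided exact permutation test, p = 0.3, adjusted p = 0.375 over 5 tests). With GC content and length trends removed the log2 ratio was 0.97 in sh-NC against 1.13 in sh-IGF2BP3 (two-sided exact permutation test, p = 0.5). The size of the ratio depends on the lengths used. Per kilobase of principal transcript the sh-NC means were 36.3 for METTL3 and 6.93 for METTL14.

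The balance among the YTHDF readers was the only measure of the m6A genes in which the libraries of the groups were separate as deposited. YTHDF1 made up 31.6%, 32.3% and 31.8% of the summed FPKM of YTHDF1, YTHDF2 and YTHDF3 in sh-NC 1 to 3, against 38.9%, 33.5% and 33.8% in sh-IGF2BP3 1 to 3. YTHDF3 made up 23.7%, 24.6% and 24.4% in sh-NC against 17.3%, 21.0% and 21.9% in sh-IGF2BP3 libraries. The YTHDF1 share was thus larger and the YTHDF3 share smaller in every sh-IGF2BP3 library, although the summed level was 96.0 ± 9.19 FPKM in sh-NC and 99.8 ± 14.7 FPKM in sh-IGF2BP3 libraries (SD, n = 3 per group). The mean share differed by 3.53 percentage points for YTHDF1 and by −4.15 points for YTHDF3 (two-sided exact permutation test, p = 0.1 for each, the smallest that 3 libraries against 3 allow, adjusted p = 0.25 over 5 tests). These shares sum to 100%, so the 3 values are not independent. Their sizes depend on the lengths behind the FPKM values. Per kilobase of principal transcript the sh-NC means were 60.4 for YTHDF3, 53.8 for YTHDF2 and 29.7 for YTHDF1, with YTHDF3 the highest and not the lowest. The YTHDF2 share was 43.9% ± 0.818 in sh-NC against 44.5% ± 0.896 in sh-IGF2BP3 libraries (SD, n = 3 per group; two-sided exact permutation test, p = 0.5).

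Without sh-IGF2BP3 1 the shift was 1.77 points for YTHDF1 and −2.76 points for YTHDF3. With GC content and length trends removed it was −0.40 and −0.037 points, and the groups overlapped for all 3 readers. The longest transcript of YTHDF1 has a GC content of 51.9%, that of YTHDF2 47.5% and that of YTHDF3 38.8%, the same order as their fold changes.

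**Figure D3:**
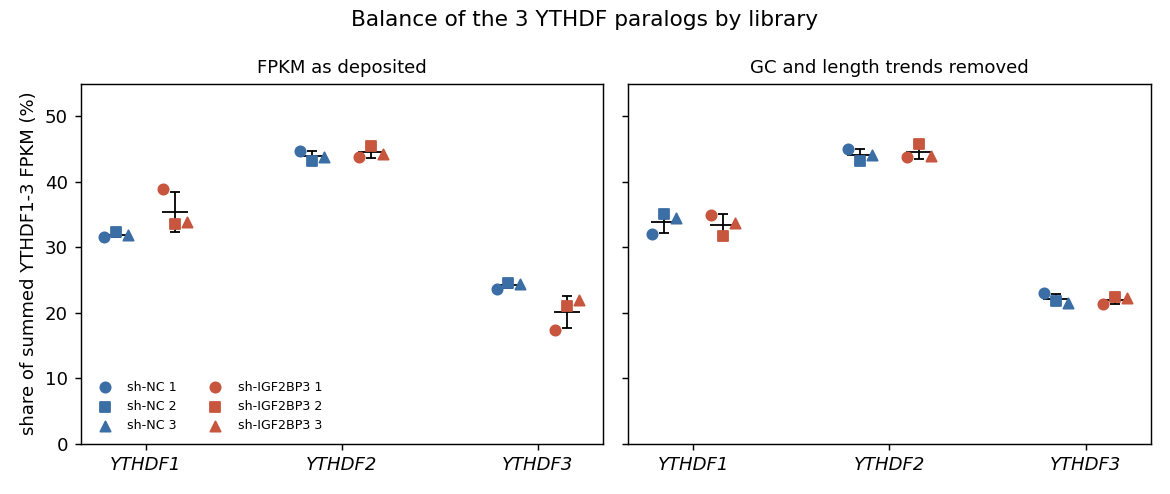
Share of each YTHDF reader (x axis) in the summed FPKM of all 3 (y axis, %), by library, as deposited on the left and with GC content and length trends removed on the right, with bars for the mean and SD. On the left every red YTHDF1 point lies above and every red YTHDF3 point below the blue ones, and on the right the points overlap.

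In some libraries most of the m6A genes stood on the same side of their means. The median deviation of the 10 genes from their own means (log2 CPM, 6 libraries) took the values 0.19, −0.014 and −0.13 for sh-NC 1 to 3, against −0.24, 0.065 and 0.18 for sh-IGF2BP3 1 to 3. In sh-NC 1 there were 8 of 10 genes above their means and in sh-IGF2BP3 3 there were 9, while sh-IGF2BP3 1 had 2, sh-NC 2 and sh-NC 3 had 3 each, and sh-IGF2BP3 2 was near an even split with 6. METTL14 and FTO were the genes below their means in sh-NC 1, and METTL14 was the gene below its mean in sh-IGF2BP3 3. Since all values come from the same 6 libraries, the 10 genes are not independent readings.

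**Figure D4:**
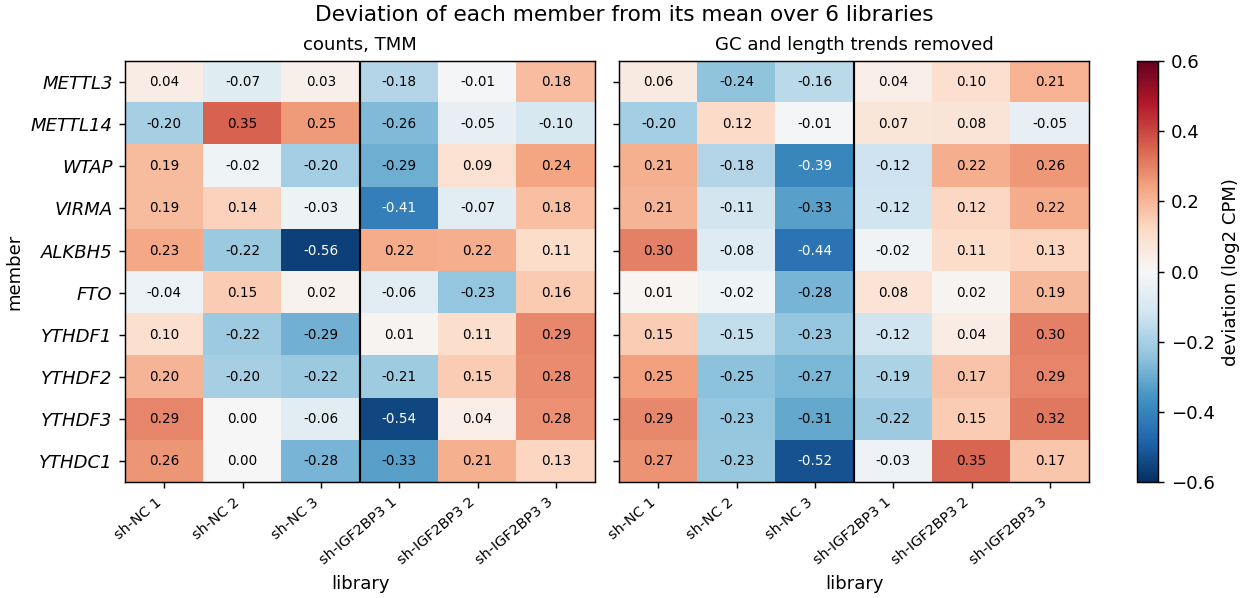
Deviation of each m6A gene (rows) from its mean over 6 libraries (columns), in log2 CPM, with TMM scaling on the left and with GC content and length trends removed on the right. On the left, columns sh-NC 1 and sh-IGF2BP3 3 are mostly red and column sh-IGF2BP3 1 is mostly blue, and on the right 10 of 10 genes are above their means in sh-IGF2BP3 2 and 0 in sh-NC 3.

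The estimates followed the GC content of the transcripts. Over 16236 tested genes whose GC content was known, the log2 fold change had a Spearman correlation of 0.611 with it, and over the 10 m6A genes one of 0.855, which is a description since the genes share the same libraries. Members with GC-poor transcripts, METTL14 (38.4%) and YTHDF3 (38.8%), had estimates below 0, and those with the GC-richest, ALKBH5 (54.9%) and YTHDF1 (51.9%), had the 2 highest estimates. The order was not strict, as YTHDC1 (40.3%) had an estimate of 0.014 and FTO (46.5%) one of −0.085. The median GC content of the 10 genes was 43.5%, beside 48.7% over all tested genes.

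Removing each library's trends with GC content and length took the correlation over all genes to 0.024. The estimates of ALKBH5 and YTHDF1 became smaller and those of the other 8 m6A genes larger. The split between higher and lower estimates went from 6 and 4 to 10 and 0, and the median log2 fold change from 0.0091 to 0.17, beside 0.010 over all genes. The values were 0.23 for METTL3 and WTAP, 0.060 for METTL14, 0.14 for VIRMA, 0.11 for ALKBH5, 0.19 for FTO, 0.15 for YTHDF1, 0.18 for YTHDF2, 0.16 for YTHDF3 and 0.29 for YTHDC1. None passed the test: 0 of 10 had an unadjusted edgeR p under 0.05, against 6.86% of all genes higher and 3.59% lower on this scale. Only FTO had groups without overlap, 1 gene of 10, with higher values in sh-IGF2BP3, against 8.43% of all genes higher and 6.70% lower. The lowest edgeR adjusted p among the 10 genes with the trends removed was 0.585, for METTL3. The split of estimates over all genes was counted only before the removal, with 8208 higher and 8545 lower. With the trends removed, 9, 1 and 0 of the 10 genes were above their means in sh-NC 1, 2 and 3. In sh-IGF2BP3 1, 2 and 3 there were 3, 10 and 9. The genes thus moved together by library, and their 10 higher estimates are not 10 independent readings.

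**Figure D5:**
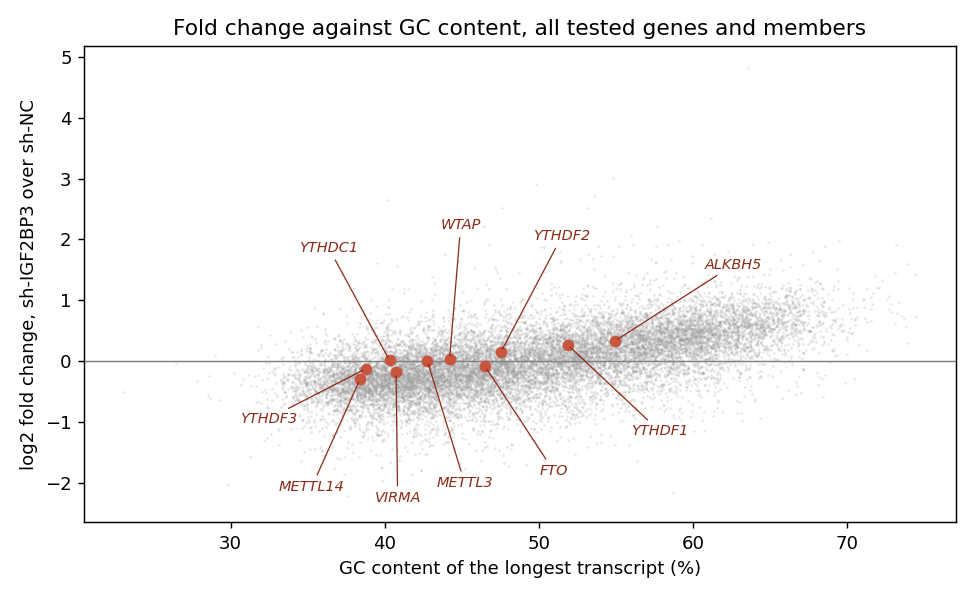
Log2 fold change (y axis) against GC content of the longest transcript (x axis, %), with all tested genes in grey and the 10 m6A genes in red. The red points lie along the rising grey cloud, from METTL14 at 38.4% GC to ALKBH5 at 54.9%.

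A further 32 genes of the m6A pathway were listed around these 10, and all 32 were tested. They were 9 other writers and their subunits, 13 other readers, 7 effectors that readers act through and 3 genes for the supply or recycling of the methyl donor. With edgeR, 0 of 32 were called at the thresholds used above, and DESeq2 called RBM15B and TRMT112 higher, 2 of the 31 to which it gave an adjusted p, against 4.29% of all genes. At an unadjusted edgeR p under 0.05 there were 4 higher and 0 lower, against 13.6% and 8.54% of all genes. The groups did not overlap for 4 higher (RBM15B, TRMT112, PRRC2A and SND1) and 4 lower (YTHDC2, FMR1, MAT2A and ZCCHC4), against 13.2% and 11.0% of all genes, so these counts were near the background. SND1 and ZCCHC4 are named after their values were seen. The median log2 fold change of the 32 genes was 0.093, beside −0.014 over all genes.

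RBM15B, a subunit that brings the writer complex to its RNA targets, differed most by p. RBM15B (ENSG00000259956; chromosome 3, 51391285 to 51397908, plus strand) was at 44.3, 61.0 and 53.8 CPM in sh-NC and 116, 87.4 and 80.8 CPM in sh-IGF2BP3 libraries. Every sh-IGF2BP3 value was above every sh-NC value, with a log2 fold change of 0.84 (standard error 0.201, edgeR adjusted p = 0.103, DESeq2 adjusted p = 0.0130) and of 0.65 with GC content and length trends removed. RBM15B shares 19.95% of its exon bases with DCAF1 on the opposite strand, which had 3365, 3710 and 2818 counts in sh-NC and 1959, 2224 and 3164 counts in sh-IGF2BP3 libraries. TRMT112 (ENSG00000173113; chromosome 11, 64316460 to 64317559, minus strand), the partner that stabilizes METTL5 and other methyltransferases, was at 67.6, 54.2 and 40.2 CPM in sh-NC and 90.6, 124 and 77.2 CPM in sh-IGF2BP3 libraries. These groups did not overlap either, with a log2 fold change of 0.85 (standard error 0.227, edgeR adjusted p = 0.103, DESeq2 adjusted p = 0.0296) and of 0.64 with the trends removed. TRMT112 shares 17.5% of its exon bases with ESRRA on the opposite strand, which had 816, 790 and 559 counts in sh-NC and 1353, 1010 and 786 counts in sh-IGF2BP3 libraries, and its part in the TRMT112 values was not tested.

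The other related genes named by p did not pass either test. The reader PRRC2A had a log2 fold change of 0.58 (edgeR adjusted p = 0.143), and the splicing factor SRSF3, which YTHDC1 recruits, one of 0.50 (edgeR adjusted p = 0.217). With the trends removed the estimates were 0.22 for PRRC2A, whose groups then overlapped, and 0.79 for SRSF3. Without sh-NC 1, edgeR called both higher, together with RBM15B and TRMT112, a setting in which it called 10.01% of all genes higher. The estimates were −0.39 for the reader and helicase YTHDC2, −0.36 for FMR1, −0.41 for CNOT1, the scaffold of the CCR4-NOT complex to which YTHDF2 binds, and −0.37 for MAT2A, which makes the methyl donor S-adenosylmethionine. With GC content and length trends removed the last 4 were 0.065, 0.047, −0.18 and −0.25. On that scale 6 of the 32 genes were higher and 0 lower at an unadjusted edgeR p under 0.05, against 6.86% and 3.59% of all genes. The groups did not overlap for 7 on the higher and 2 on the lower side, against 8.43% and 6.70% of all genes, and the median was 0.19, beside 0.010 over all genes.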

How the data were processed

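RNA from 6 HCT116 libraries was sequenced after TruSeq RNA library preparation from total RNA. The authors deposited raw counts per gene, whole numbers without normalization, and FPKM values, the same counts divided by the library total and a gene length. The submitters' processing notes name CASAVA and GRCh38. The aligner, the counting tool and the use of strand are not given in the sources used here. The members and gene lists were chosen with earlier results of these data known.

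The counts were tested with edgeR 4.0.16 in R 4.3.3 (filterByExpr, TMM, quasi-likelihood test, two-sided, Benjamini-Hochberg adjustment over 16753 genes), on all 6 libraries without a covariate. A call needed an adjusted p under 0.05 and a fold change above 1.5. Log2 CPM used a prior count of 2. Alternatives were DESeq2 1.42.0, limma 3.58.1 on log2(FPKM + 1) or log2(FPKM + 0.1) for genes with a mean of at least 1 FPKM or without this filter, other normalizations and count filters, a block for the replicate number, leaving out each library, and removal of each library's trends with GC content and gene length (splines with 5 degrees of freedom, GC content of the longest GENCODE 29 transcript, known for 96.9% of tested genes). The script was tested on simulated data. Ratios and shares of FPKM were compared by exact permutation of the 6 libraries. Named were the 10 members, IGF2BP3 and the 8 related genes with the smallest unadjusted p.

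Depth was 16146718 to 23576469 counts. Libraries of a group differed by more than counting noise (chi-square per degree of freedom at least 19.8), so none was counted as a duplicate.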

Additional observations from a re-analysis of the deposited data

How the results depend on the processing

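In all 17 alternatives 0 of the 10 m6A genes were called, but 8 of these called 0 genes of the whole table and 5 called 1 to 5, so that in 13 the count for the 10 genes says little about its stability. The study speaks of pairs of control and knockdown cells, the labels do not say that a number marks a pair, and same-numbered libraries correlated at −0.284, −0.186 and −0.043 in their deviations from the group means, so the numbers were not taken to pair the libraries. With the replicate block, METTL3 was at −0.0019 and the median of the 10 genes at 0.0060, and the block added or removed no call. Over the 17 alternatives this median ran from −0.10, without sh-IGF2BP3 3, to 0.18, with the block and the GC content and length trends removed. Its sign thus depended on the setting. With the GC content and length trends removed, the estimates of METTL14 (0.060), VIRMA (0.14), FTO (0.19), YTHDF3 (0.16), YTHDC2 (0.065), FMR1 (0.047), the YTHDF1 share (−0.40 points) and the log2 ratio of FTO to ALKBH5 (0.051) changed sign, and with the replicate block added those of METTL14 (0.065), VIRMA (0.15), FTO (0.20), YTHDF3 (0.17), YTHDC2 (0.067) and FMR1 (0.060). METTL3, WTAP and YTHDC1, all near 0, changed sign under upper-quartile normalization (−0.054, −0.025 and −0.043), limma on log2(FPKM + 1) with or without the filter (−0.073, −0.049 and −0.061) and limma on log2(FPKM + 0.1) (−0.078, −0.052 and −0.064). METTL3 (−0.012) and YTHDC1 (−0.0085) did so with at least 10 counts in every library. The cause of these sign changes was not tested.

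Leaving out 1 library gave −0.11 to 0.091 for METTL3, −0.10 to 0.17 for WTAP, −0.20 to 0.0091 for FTO, −0.33 to 0.081 for YTHDF3, −0.13 to 0.16 for YTHDC1, −0.35 to −0.038 for VIRMA and 0.021 to 0.30 for YTHDF2. The difference in log2 ratio ran from 0.13 to 0.46 for METTL3 to METTL14 and from −0.71 to −0.28 for FTO to ALKBH5. At an unadjusted edgeR p under 0.05 it gave 0 to 1 gene higher and 0 to 1 lower, the 1 and 1 without sh-NC 1, where ALKBH5 was at 0.57 and METTL14 at −0.44 and 17.7% of all genes were higher and 14.2% lower by that rule. That setting called 1739 genes higher and 985 lower in all, against 0 with 6 libraries. Without a filter on low counts edgeR called 687 higher and 150 lower, and DESeq2 562 and 137. RBM15B and TRMT112 were called by DESeq2, without the filter and without sh-NC 1.

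With 3 libraries per group, the 95% interval stayed within a fold change of 1.5 both with and without the trends for 2 of the 10 genes, and exact tests could not go below p = 0.1.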

Other observations

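The divergent transcripts beside METTL14, VIRMA and YTHDF3 had few reads. METTL14-DT, a long noncoding RNA, had 5, 24 and 30 counts in sh-NC 1, 2 and 3 and 6, 8 and 6 counts in sh-IGF2BP3 1, 2 and 3, at most 3.20% of the METTL14 count in a library. As for METTL14, sh-NC 1 was at the level of the sh-IGF2BP3 libraries. YTHDF3-DT had 3, 5 and 3 counts in sh-NC and 11, 12 and 7 counts in sh-IGF2BP3 libraries, without an overlap between the groups. These counts were not scaled for depth. On scaled values, groups without overlap and higher in sh-IGF2BP3 were found for 13.2% of all genes tested. VIRMA-DT had 4 to 14 counts per library. These RNAs were chosen after their values were seen, and no test of them is given. The processed pseudogenes FTOP1 and YTHDF2P1 had 3 to 11 counts per library, and WTAPP1 and YTHDF1P1 had 0 in all 6.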
